A study of Rattus norvegicus with 12 samples.

Results

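The module described here is cholesterol synthesis, uptake and efflux, a list of 30 rat genes for making sterol, sensing it and moving it. Members were found by matching the listed symbols to Entrez identifiers, and 29 of the 16511 genes in the table of counts were members. Mvk, mevalonate kinase, is listed under an identifier that was not found among those genes, so its expression was not analysed here and it enters the promoter search alone. Of the 29 members, 27 passed the filter on low counts, and Soat1 and Hsd17b7 did not. The list holds no lipoprotein receptor, so genes of uptake were read from a separate list of the wider pathway.

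RNA was sequenced from 12 snap-frozen mammary glands of rats at postnatal day 21 (PND21), 1 gland per litter. In 6 litters the prenatal diet was high fat butter (HFB, written HBF in the study's text), and in the other 6 it was the AIN control diet (CTL). Pups of both groups were kept on the AIN diet after birth. The study's text names SD rats as the strain, and the labels name no genetic change and no agent beyond the diet. The study's text names this deposit for RNA sequencing that compared the HBF diet with and without bisphenol A. The labels of these glands instead name HFB and CTL, and they do not name bisphenol A. The study's text describes RNA from epithelium taken by laser microdissection, whereas the labels name the mammary gland as the tissue, and levels are read here as those of whole gland, following the labels. The sources used here differ on when the prenatal diets began and ended. The comparison of HFB with CTL asks whether the diet before birth goes with a different level of these transcripts in the gland at weaning age.

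Cholesterol is built from acetyl-CoA by way of mevalonate, isoprenoids, squalene and lanosterol, in a chain of enzymes in the cytosol and the endoplasmic reticulum. When sterol in that membrane is low, SCAP escorts the transcription factor SREBP-2 to the Golgi for cleavage, and the cleaved factor raises transcription of the enzymes, whereas INSIG proteins hold SCAP back when sterol is plentiful. LXR receptors respond to oxysterols and raise the efflux pumps ABCA1 and ABCG1, and in the mammary gland both the fat pad, a store of sterol, and the epithelium, which secretes sterol in milk fat, use this pathway.

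Each library is named by its diet and library number, 1 to 6 for HFB and 7 to 11 and 14 for CTL. Total counts ranged from 2320267 in HFB 1 to 2760871 in HFB 4, and from 2403464 in CTL 9 to 2944680 in CTL 7. Levels are given as CPM, counts scaled to a common library size, after TMM normalization, which rescales each library by the bulk of its genes. A floor of 3 counts was taken as the smallest detectable level, and it corresponded to between 0.945 and 1.30 CPM depending on the library. This floor covers counting error only, whereas the SE and 95% intervals below were derived from the edgeR test and include the spread between libraries. Each SE is the absolute estimate divided by the square root of the F statistic of that test, and each interval uses the t distribution. Each library, from a litter of its own, was treated as 1 replicate, and the labels give no batch.

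A pair of libraries, HFB 6 and CTL 14, stood apart from the other 10. The first principal component of all genes, which held 57.5% of the variance, set them apart, and the Spearman correlation over genes was 0.952 between them but 0.748 to 0.886 between either of them and the 10 others. HFB 5 lay between, with 0.885 to 0.943 against the remaining 9 libraries, which gave 0.931 to 0.977 among themselves. The adipocyte markers (7 of 7 genes found, Fabp4 the most abundant, none at 0) summed to 19021 CPM in HFB 6 and 15283 CPM in CTL 14, against 31830 to 40309 CPM in the 10 others. The lymphoid markers (7 of 8 genes found, Cd37 the most abundant) summed to 983 CPM in HFB 6 and 903 CPM in CTL 14, against 7.11 to 176 CPM in the others. Of these, Cd3e, Cd3d, Ms4a1, Cd2 and Ccr7 were at 0 in at least 1 library. Results that rest on HFB 6 and CTL 14 are given with and without them.

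Other tissues of the gland also varied. The epithelial markers (6 of 7 genes found, Krt8 the most abundant) summed to between 114 CPM in HFB 1 and 654 CPM in HFB 6, with a median of 381 CPM. The skeletal muscle markers (5 of 7, Acta1) ranged from 146 CPM in CTL 10 to 5607 CPM in HFB 6, with a median of 1420 CPM. HFB 6 and CTL 14 had the highest sums of the epithelial markers, 654 and 635 CPM, and of the macrophage markers (7 of 7, Lyz2), 1775 and 1390 CPM against 749 to 1309 CPM in the 10 others. They had the lowest sums of the fibroblast markers (6 of 6, Col3a1), 24317 and 23057 CPM against 32634 to 53007 CPM. Red blood cell markers (5 of 5, Hba-a1) ran from 7995 CPM in CTL 10 to 82669 CPM in HFB 2. Outside the lymphoid list no marker with a row of counts was at 0 in any library, so transcripts of the fat, epithelial and stromal lists were counted in each gland.

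Members were measured over a wide range of counts. Among the 27 tested members, the median level over the 12 libraries ran from 7.62 CPM for Idi1 to 1114 CPM for Insig1. Differences in CPM between genes, here and for the markers called most abundant, are not read as differences in transcript number, since no transcript lengths were used. For the median member the highest library was 2.45 times the lowest. HFB 6 was the lowest of the 12 libraries for 13 of the 27 members and the highest for 6, and HFB 2 was the highest for 9.

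**Figure D1:**
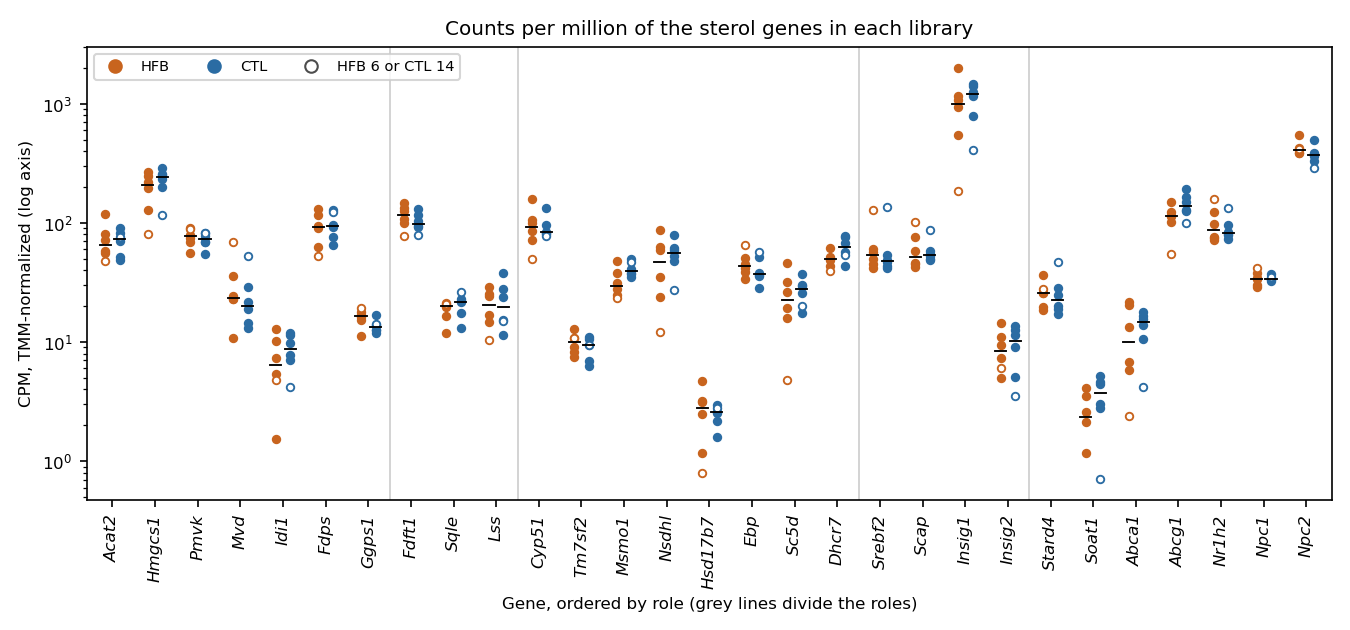
Level of each of the 29 members in each library, in CPM on a log axis, with genes in the order of their roles, HFB libraries in orange, CTL libraries in blue and a bar at the median of each diet. Open circles mark HFB 6 and CTL 14. Soat1 had 0 counts in HFB 6, which a log axis cannot show. For every gene the ranges of the diets overlap.

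Promoter stretches are shown for Hmgcs1, the enzyme against which the other members were set below, and for Insig1 and Nsdhl, the members that still rose with it when HFB 6 and CTL 14 were left out. They come from RefSeq windows of the GRCr8 assembly, which is not the rn4 build named for the counts, running from 250 bases before to 50 bases after the start of each gene. The stretch of Hmgcs1 is chr2:53382054-53382203 on the plus strand, that of Insig1 is chr4:8057870-8058019 on the minus strand, and that of Nsdhl is chrX:155817110-155817309 on the plus strand. All are written 5′ to 3′ in the direction of the gene, and capitals mark matches of CCAAT and of GGGCGG on either strand, where ATTGG and CCGCCC are the matches on the opposite strand.
Hmgcs1: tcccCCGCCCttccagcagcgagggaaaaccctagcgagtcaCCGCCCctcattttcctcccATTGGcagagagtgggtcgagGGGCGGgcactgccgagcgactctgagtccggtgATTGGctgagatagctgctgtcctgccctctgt
Insig1: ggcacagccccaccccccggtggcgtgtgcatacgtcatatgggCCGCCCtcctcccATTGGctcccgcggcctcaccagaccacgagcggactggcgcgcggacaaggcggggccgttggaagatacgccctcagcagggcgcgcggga
Nsdhl: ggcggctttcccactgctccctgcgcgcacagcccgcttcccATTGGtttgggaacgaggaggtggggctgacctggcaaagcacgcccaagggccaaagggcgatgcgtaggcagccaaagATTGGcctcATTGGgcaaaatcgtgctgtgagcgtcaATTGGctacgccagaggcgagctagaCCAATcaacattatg
Windows were found for 25 of the 30 listed members and for 27457 genes in all, with 33469 windows. Pmvk, Fdft1, Sqle, Stard4 and Abcg1 had no window. CCAAT, the letters bound by NF-Y, was found in 18 of the 25 members (72%) and in 37.49% of all windows. GGGCGG, the letters of the GC box bound by Sp1, was found in 20 of 25 members (80%) and in 33.06% of all windows. The classical sterol regulatory element, searched as TCACNCCAC, was found exactly in 0 of 25 members and in 1.117% of all windows. With 1 mismatch it was found in 11 of 25 members (44%), Insig1 and Nsdhl among them and Hmgcs1 not, and in 23.67% of all windows. For the LXR element only an exact direct repeat of AGGTCA spaced by 4 bases was searched, and it was found in 0 members and in 2 windows in all (0.005976%). No mismatch was allowed, so this search cannot show whether a window holds an LXR element with other letters. Both strands were searched, and a match is a description of letters in these windows.

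The first steps lead from acetyl-CoA to the isoprenoids. Acat2, which joins acetyl-CoA units, ranged from 48.1 to 118 CPM over the 12 libraries. Hmgcs1 (Entrez 29637) makes HMG-CoA, the precursor of mevalonate. In HFB glands it ranged from 81.0 CPM in HFB 6 through a median of 208 CPM to 267 CPM in HFB 2, and in CTL glands from 117 CPM in CTL 14 through 243 CPM to 288 CPM in CTL 10. HFB 6, CTL 14 and HFB 5, at 128 CPM, were the lowest libraries, and the diets overlapped. Its log2 fold change, HFB minus CTL, was -0.24 (SE 0.28, n = 6 per diet), with 4 of 6 HFB libraries below the CTL median. Pmvk and Mvd, the kinase and the decarboxylase that follow, ranged from 54.8 to 91.3 CPM and from 10.7 to 69.0 CPM, and Mvd was highest in HFB 6 and CTL 14.

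Idi1 (89784) isomerizes the first isoprenoid unit. It ranged from 1.55 CPM in HFB 5, which is 4 counts, through a median of 6.39 CPM to 12.9 CPM in HFB 2 with HFB, and from 4.23 CPM in CTL 14 through 8.82 CPM to 11.8 CPM in CTL 11 with CTL. The CTL range lay inside the HFB range, and the log2 fold change was -0.31 (SE 0.41, n = 6 per diet), with 4 of 6 HFB libraries below the CTL median. Fdps, the synthase of farnesyl diphosphate, ranged from 52.9 to 130 CPM. Ggps1 (291211) makes geranylgeranyl diphosphate for protein prenylation. With HFB it ran from 11.2 CPM in HFB 5 through 16.4 CPM to 19.2 CPM in HFB 6, and with CTL from 11.9 CPM in CTL 10 through 13.2 CPM to 17.0 CPM in CTL 9. The log2 fold change of Ggps1 was 0.23 (SE 0.17, n = 6 per diet), 5 of 6 HFB libraries lay above the CTL median, and the ranges overlapped.

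Squalene and its ring closure follow. Fdft1, squalene synthase, ranged from 77.8 to 146 CPM, and Lss, which closes the rings to lanosterol, from 10.4 to 37.8 CPM. Sqle (29230), the epoxidase between them, ran from 11.8 CPM in HFB 4 through 19.9 CPM to 21.1 CPM in HFB 3 with HFB, and from 13.0 CPM in CTL 9 through 21.8 CPM to 26.1 CPM in CTL 14 with CTL. All 6 HFB libraries lay below the CTL median, within the range of the CTL libraries except for HFB 4. The log2 fold change was -0.16 (SE 0.20, n = 6 per diet).

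The enzymes from lanosterol to cholesterol included the members with the smallest p for diet. Cyp51, the lanosterol demethylase, ranged from 50.1 to 158 CPM, Tm7sf2, a sterol reductase, from 6.31 to 12.9 CPM, Ebp, a sterol isomerase, from 28.7 to 65.7 CPM, and Sc5d, a sterol desaturase, from 4.81 to 46.3 CPM. Hsd17b7, a ketosteroid reductase, had 2 to 11 counts per library and did not pass the filter. Msmo1 (140910), a methylsterol oxidase, ran from 23.3 CPM in HFB 6 through 29.8 CPM to 47.6 CPM in HFB 2 with HFB, and from 35.2 CPM in CTL 10 through 39.5 CPM to 49.4 CPM in CTL 8 with CTL. Its log2 fold change was -0.36 (SE 0.19, n = 6 per diet), and 5 of 6 HFB libraries lay below the CTL median. Dhcr7 (64191), the reductase of a last step, ran from 39.3 CPM in HFB 6 through 49.4 CPM to 61.3 CPM in HFB 2 with HFB, and from 43.4 CPM in CTL 11 through 62.4 CPM to 78.3 CPM in CTL 10 with CTL. All 6 HFB libraries lay below the CTL median, the ranges overlapped, and the log2 fold change was -0.35 (SE 0.16, n = 6 per diet). Nsdhl (309262), a sterol dehydrogenase, ran from 12.03 CPM in HFB 6 through 47.0 CPM to 86.5 CPM in HFB 2 with HFB, and from 27.5 CPM in CTL 14 through 55.7 CPM to 79.0 CPM in CTL 10 with CTL. Its lowest libraries were HFB 6, HFB 5 and CTL 14, as for Hmgcs1, and the diets overlapped.

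Regulators of SREBP-2 split into genes low and genes high in the pair of libraries that stood apart. Srebf2 (300095), which encodes SREBP-2, ran from 41.7 CPM in HFB 3 through 53.6 CPM to 129 CPM in HFB 6 with HFB, and from 42.2 CPM in CTL 9 through 47.9 CPM to 137 CPM in CTL 14 with CTL. Scap (301024), its escort, ran from 42.9 CPM in HFB 3 through 52.1 CPM to 101 CPM in HFB 6, and from 49.1 CPM in CTL 9 through 53.9 CPM to 86.6 CPM in CTL 14. Both were highest in HFB 6 and CTL 14. Insig1 (64194), which retains SCAP and is itself a target of SREBP-2, ran from 186 CPM in HFB 6 through 1005 CPM to 2015 CPM in HFB 2 with HFB, and from 406 CPM in CTL 14 through 1212 CPM to 1471 CPM in CTL 10 with CTL. Insig2 (288985), the other retention protein, ran from 5.03 CPM in HFB 5 through 8.43 CPM to 14.6 CPM in HFB 2, and from 3.52 CPM in CTL 14 through 10.3 CPM to 13.7 CPM in CTL 10. The diets overlapped for all of these genes. The log2 fold changes, each with n = 6 per diet, were 0.05 (SE 0.35) for Srebf2, 0.08 (SE 0.23) for Scap, -0.14 (SE 0.45) for Insig1 and -0.05 (SE 0.36) for Insig2.

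Transport, esterification and efflux make up the last group. Npc1 (266732), which exports cholesterol from lysosomes, ran from 29.2 CPM in HFB 1 through 34.1 CPM to 42.1 CPM in HFB 6 with HFB, and from 32.4 CPM in CTL 8 through 33.9 CPM to 37.1 CPM in CTL 11 with CTL. It varied least of the tested members, with a biological coefficient of variation (BCV, the spread between libraries beyond counting error) of 0.180, and its log2 fold change was 0.01 (SE 0.13, n = 6 per diet). Npc2 (286898), its soluble partner, ran from 384 CPM in HFB 4 through 413 CPM to 549 CPM in HFB 5 with HFB, and from 289 CPM in CTL 14 through 372 CPM to 495 CPM in CTL 8 with CTL. All 6 HFB libraries lay above the CTL median, the ranges overlapped, and the log2 fold change was 0.19 (SE 0.15, n = 6 per diet). Stard4 (291699), a cytosolic sterol carrier, ran from 18.6 CPM in HFB 5 through 25.7 CPM to 36.6 CPM in HFB 1, and from 17.3 CPM in CTL 11 through 22.4 CPM to 46.8 CPM in CTL 14. Its log2 fold change was -0.03 (SE 0.26, n = 6 per diet) with overlapping ranges. Soat1 (81782), which esterifies cholesterol, had 0 to 14 counts per library, from 0 in HFB 6 through 2.36 CPM to 4.11 CPM in HFB 1, and from 0.704 CPM in CTL 14 through 3.74 CPM to 5.19 CPM in CTL 10. Soat1 did not pass the filter over 12 libraries, and its lowest libraries were under the floor.

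The efflux pumps were low in HFB 6 and CTL 14. Abca1 (313210), which loads cholesterol onto lipid-poor apolipoprotein, ran from 2.41 CPM in HFB 6 through 10.1 CPM to 21.8 CPM in HFB 4 with HFB, and from 4.23 CPM in CTL 14 through 14.8 CPM to 17.8 CPM in CTL 10 with CTL. Abcg1 (85264), which passes it to larger particles, ran from 54.5 CPM in HFB 6 through 114 CPM to 149 CPM in HFB 4, and from 99.7 CPM in CTL 14 through 139 CPM to 193 CPM in CTL 11. The ranges of the diets overlapped for both pumps. The log2 fold change was -0.15 (SE 0.48, n = 6 per diet) for Abca1 and -0.39 (SE 0.22, n = 6 per diet) for Abcg1, with 4 and 5 of 6 HFB libraries below the CTL median. Nr1h2, the LXR receptor gene of this list, ranged from 72.0 to 160 CPM and was highest in HFB 6 and CTL 14.

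**Figure D2:**
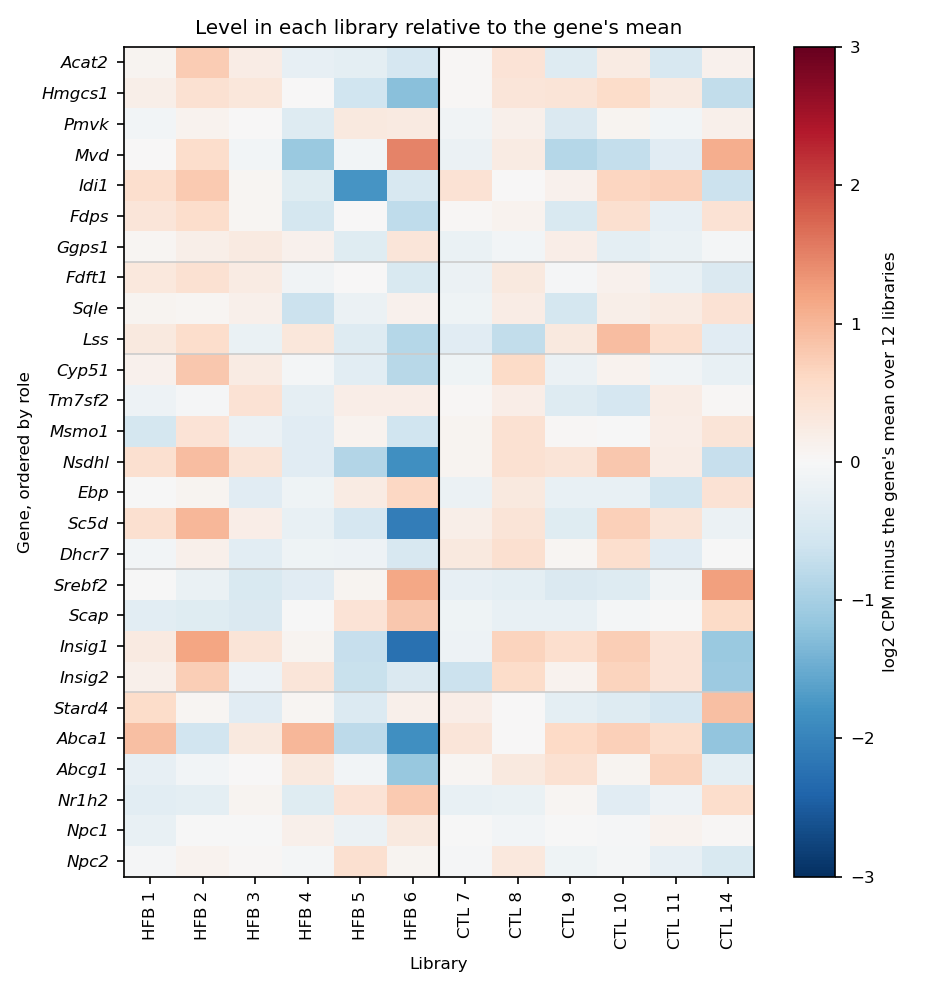
Log2 CPM of the 27 tested members in each library minus the gene's mean over the 12 libraries, from blue (below the mean) to red (above it), with genes in the order of their roles and the black line dividing the diets. HFB 6 and CTL 14 are blue for Hmgcs1, Nsdhl, Insig1 and Abca1 and red for Mvd, Srebf2, Scap and Nr1h2, and HFB 6 holds the lowest value for 13 of the 27 members.

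The test of diet called none of the members. In edgeR 0 of the 27 tested members had an adjusted p under 0.05, where 0% of the 9382 genes tested did, and 0 members had an unadjusted p under 0.05, where 2.34% of the genes did. DESeq2 gave 0 members at either threshold, where 2.89% of genes had an unadjusted p under 0.05, and limma-voom gave 0 members past the adjusted threshold and 1, Msmo1, with an unadjusted p under 0.05, against 2.37% of genes. With the adipocyte and lymphoid marker scores in the model, 0 members passed the adjusted threshold in edgeR, and 3, Nsdhl, Dhcr7 and Abcg1, had an unadjusted p under 0.05, against 7.94% of genes. In edgeR without the scores the adjusted p of each member was 0.999, and with the scores the smallest was 0.609. No member had diets that did not overlap, against 0.107% of the genes. The median log2 fold change was -0.03 over members, 13 above 0 and 14 below, and 0.00018 over all genes tested. With each library left out in turn, the median over members ran from -0.16, without HFB 2, to 0.03, without HFB 5. In a sample of bulk tissue, fewer cells of a type and less RNA per cell cannot be told apart.

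By role, the median log2 fold change was 0.04 over the 7 tested genes from acetyl-CoA to isoprenoids, -0.13 over the 3 from squalene to lanosterol and -0.15 over the 7 from lanosterol to cholesterol. It was 0.00093 over the 4 regulators and -0.01 over the 6 tested genes of transport and efflux. Without HFB 6 and CTL 14 these medians were 0.11, -0.08, -0.01, -0.03 and 0.03, in the same order, and the median over members was 0.03. Single members ran from -0.39 for Abcg1 to 0.30 for Mvd. The 95% intervals reached from 0.27 to 1.03 log2 units to either side of the estimate, and for 22 of 27 members they lay within -1 to 1, so a 2-fold diet difference lay outside the interval for those 22. The median BCV was 0.294 over members and 0.286 over all genes. Without HFB 6 and CTL 14 it was 0.208 and 0.190, and Abcg1, at -0.34 (SE 0.14, adjusted p = 0.919), was the 1 member with an unadjusted p under 0.05, where 4.59% of genes had one.

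**Figure D3:**
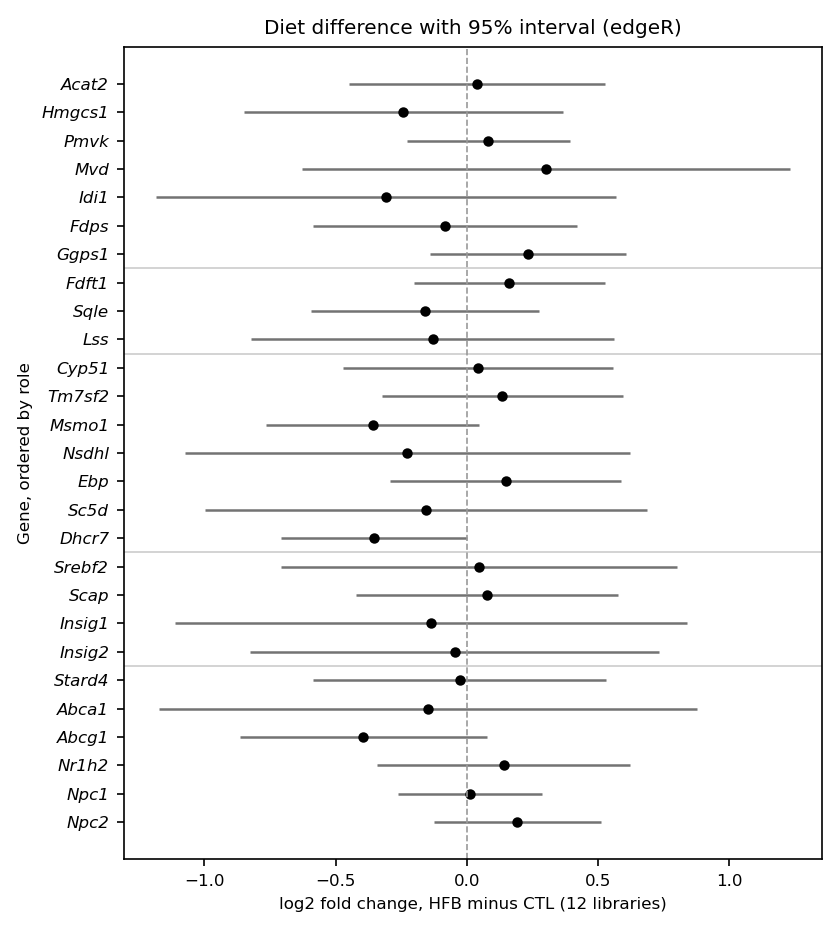
Log2 fold change of each of the 27 tested members, HFB minus CTL, as points with 95% intervals from edgeR, with n = 6 libraries per diet. Estimates run from -0.39 for Abcg1 to 0.30 for Mvd, and every interval includes 0.

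As a scale for these values, the non-members with the smallest p for diet were Dbf4, a regulator of the kinase that starts DNA replication, and Fxyd2, a regulator of the sodium pump. Dbf4 ran from 3.48 to 6.80 CPM with HFB and from 8.01 to 10.9 CPM with CTL, and its log2 fold change was -0.94 (SE 0.22, adjusted p = 0.999). Fxyd2 ran from 17.3 to 26.7 CPM with HFB and from 10.4 to 16.9 CPM with CTL, with 0.71 (SE 0.18, adjusted p = 0.999). In both genes all 6 HFB libraries lay on one side of all 6 CTL libraries. Of 57 other genes of the sterol and lipid pathway, 48 were tested, 0 passed the adjusted threshold in edgeR and 1 had an unadjusted p under 0.05, where 0% and 2.34% of all genes did.

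A slope was fitted for each gene on the log2 level of Hmgcs1 across the libraries, with diet in the model, so that a slope of 1 means a doubling of the gene for each doubling of Hmgcs1. Of the 26 other tested members, 10 (38.5%) rose with Hmgcs1, where 26.6% of the 9381 genes tested rose, and 5 (19.2%) fell, where 27.5% fell. Whether these shares differ between members and all genes was not tested. The members that rose were Insig1, Nsdhl, Sc5d, Fdft1, Cyp51, Abca1, Insig2, Abcg1, Lss and Idi1, and those that fell were Scap, Srebf2, Nr1h2, Mvd and Ebp. The median slope was 0.18 over members and 0.01 over all genes. Without HFB 6 the counts were 6 and 3, where 13.8% and 16.1% of all genes rose and fell, and without CTL 14 they were 9 and 3, where 20.5% and 22.3% did.

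Insig1 had the steepest slope among the members called, 1.68 (SE 0.14, adjusted p = 8.83e-06), followed by Abca1 with 1.43 (SE 0.38, adjusted p = 0.00625) and Nsdhl with 1.40 (SE 0.14, adjusted p = 2.14e-05). Among genes that fell, Srebf2 had -1.0 (SE 0.13, adjusted p = 8.03e-05), Scap -0.69 (SE 0.09, adjusted p = 6.43e-05) and Nr1h2 -0.61 (SE 0.11, adjusted p = 0.000505). These genes encode, in turn, the activator of sterol synthesis, its escort and an LXR receptor. The members with the largest p were Ggps1 with -0.02 (SE 0.15), Npc2 with 0.03 (SE 0.14) and Msmo1 with 0.10 (SE 0.17), and their adjusted p were 0.938, 0.844 and 0.632. For the enzymes around squalene the slopes were 0.46 (SE 0.10, adjusted p = 0.00216) for Fdft1, -0.12 (SE 0.18, adjusted p = 0.595) for Sqle and 0.76 (SE 0.24, adjusted p = 0.0169) for Lss. Without HFB 6 and CTL 14 they were 0.47, 0.34 and 0.93, none of them called, and differences between these slopes were not tested.

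Without HFB 6 and CTL 14, 2 members still rose with Hmgcs1 and 0 fell, where 0.277% of the 9385 genes rose and 0.33% fell. The members were Nsdhl, with a slope of 1.64 (SE 0.23, adjusted p = 0.0186), and Insig1, with 1.60 (SE 0.23, adjusted p = 0.0187). At an unadjusted p under 0.05 there were 10 members of 26, 8 with a positive slope and 2, Scap and Nr1h2, with a negative one, where 22.4% of all genes had such a p. The positive ones beside Nsdhl and Insig1 were Idi1, Insig2, Sc5d, Cyp51, Acat2 and Fdft1. The median slope was 0.32 over members and 0.02 over all genes. Without HFB 5 as well, a step chosen after seeing the data, Soat1 passed the filter, 0 of 27 members and 0 of 9479 genes passed the adjusted threshold in edgeR, and 6 members had an unadjusted p under 0.05, where 4.16% of genes did. The slopes of Insig1 and Nsdhl were then 2.0 (SE 0.39) and 1.84 (SE 0.38), each with an adjusted p of 0.987.

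Some members called over 12 libraries had slopes on Hmgcs1 of the opposite sign when libraries were left out. Without HFB 6 and CTL 14, Mvd had a slope of 0.30 (SE 0.49, adjusted p = 0.740) and Abcg1 one of -0.0177 (SE 0.25, adjusted p = 0.973), while that of Abca1 was 0.57 (SE 0.67, adjusted p = 0.620). Without HFB 5 as well, the slope was -1.12 (SE 0.82) for Abca1, 0.98 (SE 0.91) for Mvd, 0.28 (SE 0.49) for Ebp, -0.28 (SE 0.44) for Abcg1 and 0.18 (SE 0.36) for Nr1h2, with adjusted p of 0.987 for Abca1 and 0.992 for the others.

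**Figure D4:**
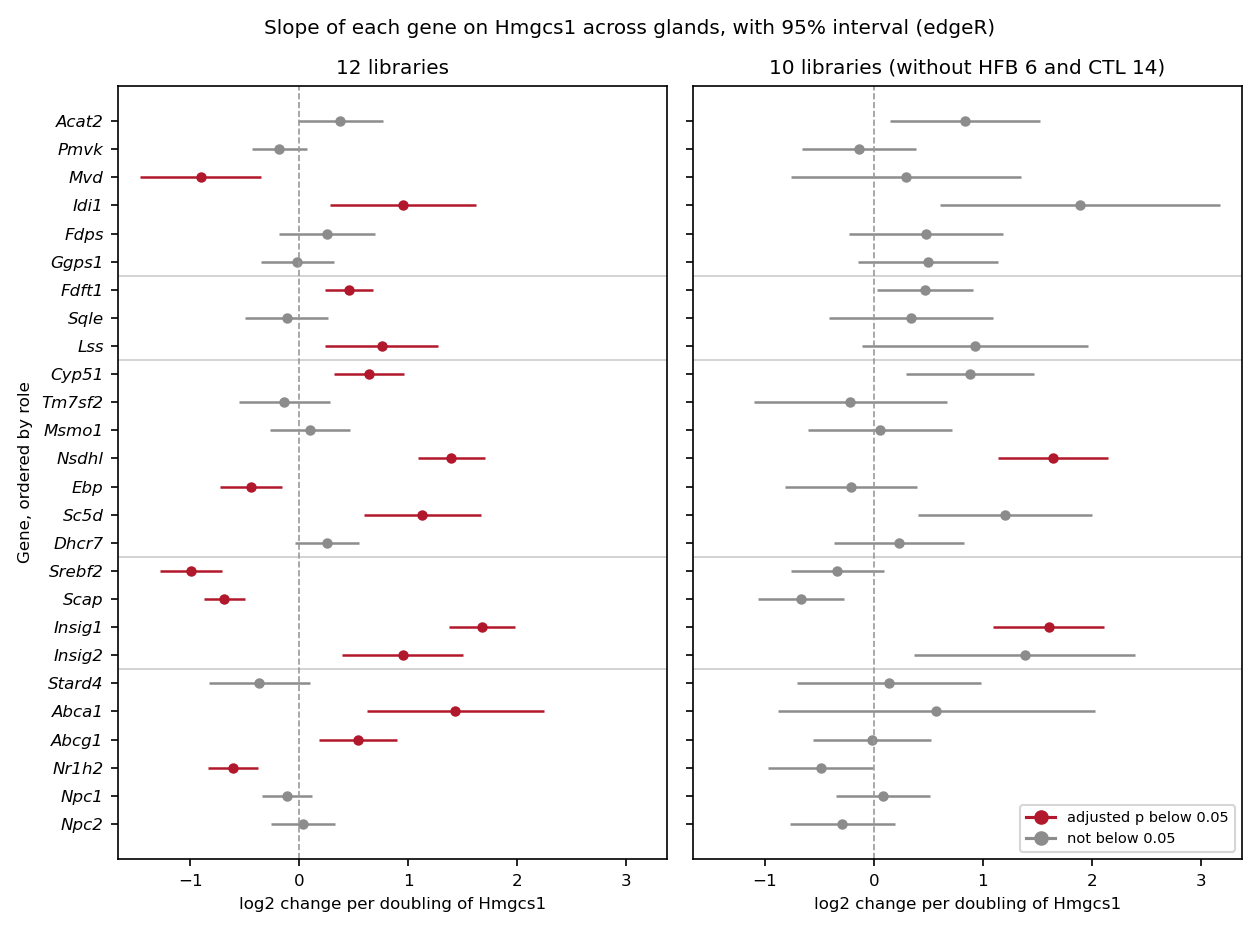
Slope of each of the 26 other tested members on Hmgcs1, in log2 units per doubling of Hmgcs1, with 95% intervals from edgeR over 12 libraries on the left and over the 10 libraries without HFB 6 and CTL 14 on the right. Red marks an adjusted p under 0.05, which 15 members have on the left and Nsdhl and Insig1 on the right.

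Correlations with Hmgcs1 were computed over the 10 libraries without HFB 6 and CTL 14, since those form a separate cluster, for the 9381 genes tested over all libraries. For Insig1, Pearson's r was 0.921 (permutation p = 0.00011, adjusted p = 0.265) and Spearman's rho 0.952 (permutation p = 0.0001, adjusted p = 0.469). Nsdhl gave r = 0.935 (permutation p = 0.00013, adjusted p = 0.265) and rho = 0.830 (permutation p = 0.00434, adjusted p = 0.863). Without HFB 5 and HFB 4, the libraries farthest from the median of Hmgcs1 in log2 CPM, r was 0.850 for Insig1 and 0.794 for Nsdhl. For Idi1, r was 0.853 (permutation p = 0.0130, adjusted p = 0.265) and rho 0.588 (permutation p = 0.0793, adjusted p = 0.888), but r was 0.090 without those libraries, so the relation rests on them. The same held for Scap, with r = -0.766 (permutation p = 0.0224, adjusted p = 0.265), rho = -0.491 (permutation p = 0.154, adjusted p = 0.888) and r = -0.037 without them. Insig2 gave r = 0.740 (permutation p = 0.00983, adjusted p = 0.265), rho = 0.697 (permutation p = 0.0312, adjusted p = 0.874) and r = 0.794 without them. Srebf2 gave r = -0.652 (permutation p = 0.0324, adjusted p = 0.265), rho = -0.491 (permutation p = 0.155, adjusted p = 0.888) and r = -0.491 without them, and Sc5d gave r = 0.675 (permutation p = 0.0257, adjusted p = 0.265), rho = 0.624 (permutation p = 0.0599, adjusted p = 0.888) and r = 0.331. In all, these 7 of 26 members had a Pearson permutation p under 0.05, against 18.7% of genes, and 0 genes passed after adjustment over the 9381 relations.

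**Figure D5:**
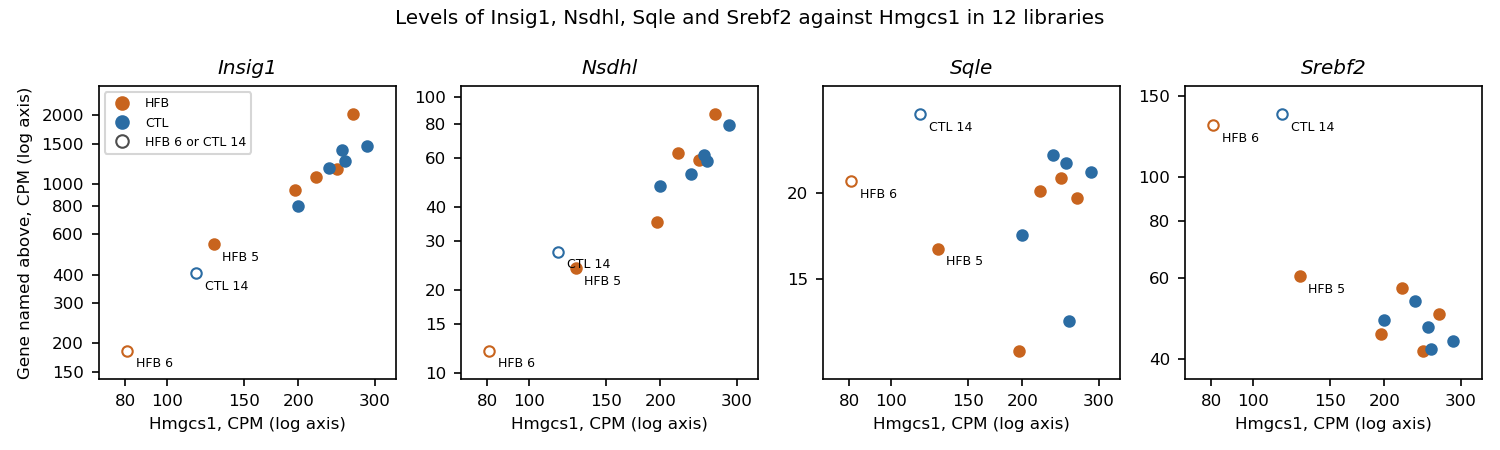
Levels of Insig1, Nsdhl, Sqle and Srebf2 against Hmgcs1, each point a library, both axes in CPM on log scales, HFB in orange and CTL in blue. HFB 6 and CTL 14, as open circles, and HFB 5 have the 3 lowest Hmgcs1 levels, 81.0, 117 and 128 CPM. Insig1 and Nsdhl are lowest in those libraries too, and Srebf2 is highest in HFB 6 and CTL 14, at 129 and 137 CPM.

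Genes outside the module moved with Hmgcs1 as steeply. The 10 non-members with the smallest p included 3 that rose, namely Slc16a1, a monocarboxylate transporter, with 2.32 (SE 0.16, adjusted p = 4.04e-06), Dbt, a subunit of the branched-chain ketoacid dehydrogenase, with 1.74 (SE 0.14, adjusted p = 6.74e-06), and Ptp4a1, a phosphatase, with 1.60 (SE 0.11, adjusted p = 5.26e-06). The 7 that fell were Emid1, Tmem176a, Pdlim7, Tagln, Mfge8, Col7a1 and Ier2, with slopes from -2.54 for Emid1 to -1.15 for Pdlim7 and adjusted p of at most 6.74e-06. Mfge8 encodes a protein of milk fat globules and Tagln one of smooth muscle. Without HFB 6 and CTL 14, Slc16a1, Ptp4a1, Dbt, Pdlim7 and Mfge8 were still called, with slopes of 2.16, 1.36, 1.26, -0.88 and -1.06. Without HFB 5 as well none of the 10 was called, and the adjusted p was 0.987 for each but Tmem176a, for which it was 0.992.

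Other genes of the pathway were read from lists that do not overlap the module. Of the 48 tested, 24 rose with Hmgcs1 and 9 fell over 12 libraries, where 26.6% of all genes rose and 27.5% fell. Over the 10 libraries 0 of 47 were called in edgeR while 11 had an unadjusted p under 0.05, where 22.4% of all genes did. Electron donors and accessory enzymes of sterol synthesis (Por, Cyb5r3, Cyb5a, Cyb5b, Lbr and Pgrmc1) rose in 6 of 6 cases with a median slope of 0.66, but the median was 0.10 over the 10 libraries. Of 6 listed fatty acid synthesis targets of SREBP-1, Fasn matched no row of counts. The 5 tested all rose, with slopes of 3.30 for Acaca, 1.87 for Me1, 1.78 for Scd, 1.30 for Elovl6 and 1.29 for Acly. Their median was 1.78 over 12 libraries and 2.86 over 10, where 5 of 5 had an unadjusted p under 0.05 and 0 an adjusted one. Among lipoprotein uptake and lysosomal genes, Scarb2, Vldlr and Lrpap1 rose and Scarb1, the receptor for high-density lipoprotein, fell, out of 7 tested, and 0 of 7 had an unadjusted p under 0.05 over the 10 libraries. The remaining lists gave 3 up and 1 down of 7 for SREBP processing, 4 up and 2 down of 11 for isoprenoid use, and 3 up and 5 down of 12 for the LXR axis, oxysterols and ester hydrolysis.

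Slopes on Abca1, the efflux pump, asked the same of export. Of the 26 other tested members, 2 rose with Abca1, namely Hmgcs1 with 0.47 (SE 0.13, adjusted p = 0.0121) and Abcg1 with 0.34 (SE 0.10, adjusted p = 0.0165), where 21% of the 9381 genes tested rose. The 6 that fell, where 23.2% of genes fell, were Mvd, Srebf2, Nr1h2, Scap, Ebp and Pmvk. Mvd had -0.75 (SE 0.12, adjusted p = 0.000904), Srebf2 -0.56 (SE 0.10, adjusted p = 0.00168) and Nr1h2, the LXR receptor gene, -0.37 (SE 0.07, adjusted p = 0.00237). The count of rising members depended on single libraries: it was 8 without HFB 2, 4 without HFB 4 and 0 without HFB 6 or without CTL 14, where 25.4%, 20.3%, 7.18% and 13.4% of all genes rose. DESeq2 and limma-voom each gave 5 rising and 6 falling members, where 22.8% and 22.9% of genes rose and 23.6% fell with either tool. The 5 members that fell with Hmgcs1 all fell with Abca1, as did 79.5% of all genes that fell with Hmgcs1. Of the 10 members that rose with Hmgcs1, 1, Abcg1, also rose with Abca1 in edgeR, as did 70.7% of all genes that rose with Hmgcs1. Abca1 is itself among those 10 and was left out of its own test, so it could not be counted.

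Over the 10 libraries 0 members rose or fell with Abca1 in edgeR, as for 0% of the 9385 genes in each direction, and 5 members had an unadjusted p under 0.05, all with negative slopes, where 21.1% of all genes had such a p. They were Msmo1 with -0.45 (SE 0.11, adjusted p = 0.0906), Mvd, Pmvk, Npc2 and Nr1h2. The slope of Hmgcs1 on Abca1 was then 0.11 (SE 0.17, adjusted p = 0.764), and without HFB 5 as well it was -0.19 (SE 0.13, adjusted p = 0.595). The non-members with the smallest p over 12 libraries were Sgpl1 with 1.05, Dlc1 with 1.72, Pdzd2 with 1.65, Fam168a with 1.07 and Crip1 with -0.95, each with an adjusted p of at most 0.000617, and none of them was called over 10. Of the 48 other pathway genes 16 rose and 6 fell over 12 libraries, where 21% and 23.2% of all genes did, and 0 of 47 did over 10, with 11 at an unadjusted p under 0.05, where 21.1% of all genes had one.

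The members were also set against marker scores of the tissues in the gland, each the mean log2 CPM of a marker list. With the adipocyte score 9 of 27 members rose, where 27.1% of the 9382 genes tested rose, and 6 fell, where 27.3% fell. Insig1 rose by 1.27 (SE 0.18, adjusted p = 6.95e-05), Nsdhl by 0.99 (SE 0.20, adjusted p = 0.000986) and Hmgcs1 by 0.76 (SE 0.11, adjusted p = 7.5e-05) per unit of the score, while Srebf2 fell, with -0.85 (SE 0.07, adjusted p = 1.74e-06). Of the 10 members that rose with Hmgcs1, 8 also rose with this score, as did 88.8% of all genes that rose with Hmgcs1, and the 5 that fell with Hmgcs1 were among the 6 that fell with it, as were 90.5% of all genes that fell with Hmgcs1. Without HFB 6 the score had 4 members rising, where 14.5% of genes rose, against 9 with all libraries. Over the 10 libraries 0 members were called in either direction in edgeR, as for 0% of the 9386 genes, while 9 members had an unadjusted p under 0.05, where 10% of all genes did. Of those, Insig1 had a slope of 2.99 (SE 0.42, adjusted p = 0.132), Hmgcs1 1.56 (SE 0.42, adjusted p = 0.419) and Nsdhl 2.50 (SE 0.63, adjusted p = 0.419). With the adipocyte and lymphoid scores both in the model of Hmgcs1, 0 of 26 members and 0% of the 9381 genes were called in edgeR, and 2 members had an unadjusted p under 0.05, where 16.5% of genes did. The median slope of the members on Hmgcs1 was 0.29 in that fit, against 0.18 without the scores. Over all alternatives run, this one among them, the slope on Hmgcs1 ran from 1.35 to 2.0 for Insig1 and from 1.31 to 1.84 for Nsdhl.

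The lymphoid score had 3 members rising over 12 libraries, Mvd with 0.27, Srebf2 with 0.24 and Stard4 with 0.15, where 17.4% of genes rose, and 1 falling, Abcg1 with -0.15, where 10.9% fell. Their adjusted p were 0.00675, 0.00132, 0.0244 and 0.00904. Without HFB 1 the counts were 6 and 3, where 20.6% and 17.5% of genes rose and fell, and without HFB 5 they were 6 and 3 as well, against 20.7% and 16.4%. Without HFB 2 they were 4 and 2, against 18.2% and 12.7%, without HFB 6 they were 2 and 0, against 7.41% and 1.51%, and without CTL 14 they were 0 and 0, against 3.37% and 0.148%. With all libraries 9 members had an unadjusted p under 0.05, against 42.8% of genes. Over the 10 libraries 0 members were called, where 0.693% of genes rose and 0.0107% fell, and 1 member, Nsdhl, had an unadjusted p under 0.05, where 7.83% of genes did.

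The epithelial score had 1 member rising, Scap with 0.39 (SE 0.09, adjusted p = 0.0483), where 1.31% of genes rose, and 0 falling, where 0.0533% fell, and 10 members had an unadjusted p under 0.05, against 29.6% of genes. The count of rising members was 0 without any one of HFB 1, HFB 2, HFB 3, HFB 5, HFB 6, CTL 8, CTL 10, CTL 11 and CTL 14, and the count of falling members was 4 without HFB 4, where 7.98% of genes fell, and 1 without CTL 9, where 0.53% did. Over the 10 libraries 0 members were called, against 0.618% of genes rising and 0.0746% falling, with 4 members and 13.0% of genes at an unadjusted p under 0.05. With the skeletal muscle score 0 members rose or fell in edgeR, where 0.81% and 0% of genes did, and 5 members had an unadjusted p under 0.05, against 7.22% of genes. Over the 10 libraries these shares were 0 members against 0.874% and 0.0639% of genes, with 5 members and 7.49% of genes at an unadjusted p under 0.05. The part of each tissue in the slopes on Hmgcs1 and Abca1 was not tested beyond these fits.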

How the data were processed

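The authors deposited raw counts of reads per Entrez gene, without normalization, for 12 libraries made from total RNA. The processing notes name bcl2fastq, CASAVA 1.8, TopHat, DESeq and the build rn4; the counting program, annotation and strand are not given in the sources used here. Identifiers were matched to RefSeq symbols of GRCr8 (16351 of 16511 genes). Members and lists were chosen with earlier results of these data known.

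Genes passing filterByExpr (9382) went into edgeR 4.0.16 under R 4.3.3 (TMM, quasi-likelihood, Benjamini-Hochberg adjustment over all genes, threshold 0.05, two-sided), for diet (6 against 6 libraries) and for slopes on the log2 CPM (prior count 2) of Hmgcs1 or Abca1, left out of its own test, or on a marker score, with diet in the model. Total counts were 2320267 to 2944680 per library and the floor was 3 counts. Alternatives were DESeq2 1.42.0, its size factors in edgeR, limma-voom (limma 3.58.1), at least 10 counts in every library, no filter, no diet term, a prior count of 0.5, both scores as covariates, leaving out each library, and leaving out HFB 6 with CTL 14. Leaving out HFB 6 with CTL 14 was set with earlier results of these data known, and leaving out HFB 5 with them was chosen after seeing the data. Permutation tests (100000 resamples, two-sided), motif searches and figures used Python 3.11.15, numpy 2.4.6, pandas 2.3.3, scipy 1.17.1 and matplotlib 3.10.9. The tests were tested on simulated data.

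Genes named with values were 13 members chosen by symbol, the 5 members with the smallest p for diet, the 5 with the smallest and 3 with the largest p for Hmgcs1, 3 for Abca1, and 10, 5 and 2 non-members with the smallest p for Hmgcs1, Abca1 and diet. Other genes named were chosen after their values were seen.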

Additional observations from a re-analysis of the deposited data

Results flagged for a closer look

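In each diet, the distance from an extreme library to its nearest neighbour, relative to the range of the 6 libraries, was compared with Dixon's critical value for 74 groups of values, namely the level of each of 29 members, the total counts and the marker sums. It was exceeded in 13 groups, where chance gives about 1 in 20, or 3.7, and in 5 of the 58 groups of members, where chance gives 2.9. No explanation was tested.

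Among members, Cyp51 was highest in CTL 8 with 134 CPM, with 96.5 CPM in the next CTL library. Srebf2 was highest in HFB 6 with 129 CPM, against 60.7 CPM in the next HFB library, and in CTL 14 with 137 CPM, against 53.5 CPM. Scap stood out in CTL 14 with 86.6 CPM, against 57.7 CPM, and Npc2 in HFB 5 with 549 CPM, against 427 CPM.

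Among whole libraries, HFB 1 had the lowest total of its diet, 2320267 counts, and CTL 7 the highest of its diet, 2944680 counts. The adipocyte markers summed to 19021 CPM in HFB 6 and 15283 CPM in CTL 14, the lowest of each diet. The lymphoid markers summed to 983 CPM in HFB 6, against 176 CPM in the next library, and to 903 CPM in CTL 14, against 43.0 CPM. The red blood cell markers summed to 82669 CPM in HFB 2, against 29660 CPM, and to 51459 CPM in CTL 9, against 12951 CPM.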

How the results depend on the processing

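The count of members called for diet was 0 under every alternative run. Over all alternatives run, the diet fold change kept its direction in 11 of the 27 tested members, the slope on Hmgcs1 in 11 of 26 and the slope on Abca1 in 10 of 26. Of the members called with all libraries, the slope turned somewhere in 5 for Hmgcs1, 2 for Abca1 and 5 for the adipocyte score, and in none for the lymphoid and epithelial scores. Values are given below for members called and for others given with a value. Where a value moved or turned below, the cause was not tested. The libraries could not be analysed as pairs, since no library number occurs in both diets. Coding against transcript length was not run, since no lengths were used. The ratio of highest to lowest library, 2.45 for the median member, was 2.79 with CPM by total counts and 2.44 with DESeq2 size factors. Depth limits Soat1 and Hsd17b7 most, with 0 to 14 and 2 to 11 counts.

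With HFB 6 and CTL 14 left out, the members rising with Hmgcs1 went from 10 to 2 and those falling from 5 to 0; with HFB 5 left out as well, chosen after seeing the data, and with both scores in the model, both counts were 0. Under each of these 3 settings the counts for Abca1, 2 and 6, were 0 and 0. Of all genes, 3.35% still rose and 1.28% fell with Abca1 with both scores in the model, and 0% did in the other settings. For Abca1 the rising members were 5 with DESeq2, 5 with limma-voom and 4 with no diet term, where 22.8%, 22.9% and 22.0% of all genes rose. The counts for the adipocyte (9 and 6), lymphoid (3 and 1) and epithelial (1 rising) scores were 0 with HFB 6 and CTL 14 left out and with HFB 5 left out as well. Leaving out each library in turn gave 6 to 10 rising and 3 to 5 falling members for Hmgcs1, 0 to 8 rising for Abca1, 4 to 10 rising for the adipocyte score, 0 to 6 rising and 0 to 3 falling for the lymphoid score, and 0 to 1 rising and 0 to 4 falling for the epithelial score. Over the same fits the share of all genes rising ran from 13.8% to 27.8% for Hmgcs1, 7.18% to 25.4% for Abca1, 14.5% to 28.4% for the adipocyte, 3.37% to 20.7% for the lymphoid and 0.614% to 9.98% for the epithelial score. The share falling ran from 16.1% to 27.9% for Hmgcs1, 0.148% to 17.5% for the lymphoid and 0% to 7.98% for the epithelial score. A mismatch in the sterol element took the members with a match from 0 to 11.

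Among members whose diet fold change is given, it turned in 8, none of them called. With HFB 5, HFB 6 and CTL 14 left out it was 0.0928 for Insig1, 0.0417 for Insig2, -0.13 for Scap, 0.0788 for Abca1, -0.0077 for Npc1 and 0.29 for Stard4. With HFB 6 and CTL 14 left out it was -0.0399 for Npc1 and 0.20 for Stard4. With limma-voom it was 0.0534 for Insig2 and 0.0031 for Stard4, with both scores in the model 0.0186 for Insig2 and -0.0234 for Srebf2, and with at least 10 counts in every library -0.0035 for Npc1. Without each library in turn it ran from -0.47 to 0.0809 for Insig1, -0.24 to 0.12 for Insig2, -0.28 to 0.47 for Srebf2, -0.12 to 0.24 for Scap, -0.11 to 0.69 for Mvd, -0.42 to 0.0649 for Abca1, -0.0500 to 0.0566 for Npc1 and -0.16 to 0.23 for Stard4. Adjusted p of these members lay between 0.644 and 1.000 over all alternatives.

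The slope on Hmgcs1 turned in Nr1h2, Mvd, Ebp, Abca1 and Abcg1, called over 12 libraries, and in Msmo1, Npc2, Ggps1 and Sqle, not called. With both scores in the model it was -0.19 for Msmo1, -0.68 for Npc2, 0.46 for Ggps1 and 0.57 for Sqle. With HFB 6 and CTL 14 left out it was -0.29 for Npc2, 0.50 for Ggps1, 0.30 for Mvd, 0.34 for Sqle and -0.0177 for Abcg1. With HFB 5 left out as well it was 0.18 for Nr1h2, 0.19 for Ggps1, 0.98 for Mvd, 0.80 for Sqle, 0.28 for Ebp, -1.12 for Abca1 and -0.28 for Abcg1. It was -0.0294 for Npc2 with no diet term, and 0.0066 and 0.0090 for Ggps1 with no filter and with at least 10 counts. Without each library in turn it ran from -0.10 to 0.25 for Msmo1, -0.13 to 0.11 for Npc2 and -0.0914 to 0.19 for Ggps1.

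With HFB 5, HFB 6 and CTL 14 left out, the slope on Abca1 turned to -0.19 for Hmgcs1 and 0.15 for Scap, both called over 12 libraries. The slope on the adipocyte score turned in 5 members called over 12 libraries. It was 1.16 for Mvd, 0.18 for Ebp, 0.0526 for Stard4 and -0.82 for Abca1 with HFB 6 and CTL 14 left out, and 1.77 for Mvd, 0.88 for Ebp, -2.78 for Abca1 and 0.0851 for Nr1h2 with HFB 5 left out as well.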
